A study of Mus musculus with 15 samples.

Results

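The genes described here encode 7 scaffold proteins of the postsynaptic density, the protein sheet under the receptors of excitatory synapses. They are Shank1 (ENSMUSG00000038738), Shank2 (ENSMUSG00000037541), Shank3 (ENSMUSG00000022623), Dlgap1 (ENSMUSG00000003279), Dlgap3 (ENSMUSG00000042388), Dlg4 (ENSMUSG00000020886) and Homer1 (ENSMUSG00000007617). They were chosen by name, with earlier results of these data known, from the 57180 genes of each of 2 deposited tables, and all 7 passed the filter on low counts in both tables. RNA-seq was performed on mouse brainstem tissue holding the ventilatory control centers, as polyA RNA, from mice on a C57BL/6 background. The first table held 3 AMPK+/+ and 3 AMPK-/- libraries. The study, set in neonatal mice, describes them as littermates with or without the AMPKα2 subunit, encoded by Prkaa2. The second held 3 LMX1B+/+, 3 LMX1B+/- and 3 LMX1B-/- libraries from prenatal mice, and the study describes the homozygous null as lethal before birth. No treatment is given for any of these libraries, and the labels do not say whether the 3 libraries of a group came from separate animals or from pooled tissue. P-values therefore cover the spread between libraries, which may be technical.

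Depth and the labels were examined first. Counts on genes summed to 14975095 to 17384171 in 4 AMPK libraries, but to 291212 in AMPK+/+ 2 and 335986 in AMPK-/- 3, where 3 counts equalled 9.98 and 9.07 CPM (counts relative to library size). In the LMX1B table all 9 libraries held 28833130 to 37441679 counts. Prkaa2, the gene deleted in AMPK-/- mice, read 21.9, 26.6 and 29.7 CPM in AMPK+/+ and 25.4, 22.3 and 12.1 CPM in AMPK-/-, and it was not called different (log2 fold change -0.20, edgeR quasi-likelihood adjusted p = 0.659). Counts of the whole gene do not separate deleted exons from the rest, so AMPK-/- below means the libraries labelled so. Lmx1b fell in LMX1B-/- to 1.45, 1.13 and 0.848 CPM from 22.5, 16.0 and 9.73 CPM in LMX1B+/+ (log2 fold change -3.82, adjusted p = 0.00287). In the libraries labelled LMX1B+/- it read 30.5, 11.9 and 14.3 CPM, not lower than in LMX1B+/+ (log2 fold change 0.23, adjusted p = 0.618). LMX1B+/- and heterozygote below likewise mean the libraries labelled so. Markers of neurons and hindbrain Hox genes were detected in every group, with 8 of 8 neuronal markers present, while the 8 forebrain markers summed to at most 7.04 CPM in the AMPK table and 79.98 CPM in the LMX1B table.

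Postsynaptic scaffolds are stacked in layers. PSD-95, the product of Dlg4, lies nearest the membrane and holds NMDA receptors, AMPA receptor auxiliary proteins and neuroligins. The SAPAP proteins encoded by the Dlgap genes bind PSD-95 on one side and SHANK proteins on the other. SHANK1, SHANK2 and SHANK3 form the deeper layer and bind Homer proteins, which link it to metabotropic glutamate receptors and to inositol trisphosphate receptors. Homer1 also makes a short, activity-induced form that breaks such links, and counts of the whole gene do not separate the short form from the long ones. In the brainstem, excitatory synapses of this kind carry the glutamatergic drive of the neurons that pattern breathing.

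Promoter sequence was available in the RefSeq table for 5 of the 7 genes, Shank3, Dlgap1, Dlgap3, Dlg4 and Homer1. The 250 bases before the start site of 3 of them are shown, because Shank3 and Dlgap3 were among the genes lower in both AMPK-/- and LMX1B+/- libraries and Homer1 was called in neither. Coordinates are of GRCm38.p6, all on the plus strand, and capitals mark GC boxes, GGGCGG on either strand, overlaps allowed. The windows are chr15:89499358-89499607 for Shank3, chr4:127172630-127172879 for Dlgap3 and chr13:93303507-93303756 for the first Homer1 start.
Shank3: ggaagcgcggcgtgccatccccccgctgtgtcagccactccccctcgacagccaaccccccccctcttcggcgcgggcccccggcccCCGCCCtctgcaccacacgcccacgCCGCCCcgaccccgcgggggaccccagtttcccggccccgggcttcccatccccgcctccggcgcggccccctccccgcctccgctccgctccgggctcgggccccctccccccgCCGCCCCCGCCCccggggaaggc
Dlgap3: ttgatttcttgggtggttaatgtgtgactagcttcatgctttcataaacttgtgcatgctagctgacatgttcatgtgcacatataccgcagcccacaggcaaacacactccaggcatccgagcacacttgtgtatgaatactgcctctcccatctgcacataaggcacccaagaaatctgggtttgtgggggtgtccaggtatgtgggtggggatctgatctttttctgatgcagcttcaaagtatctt
Homer1: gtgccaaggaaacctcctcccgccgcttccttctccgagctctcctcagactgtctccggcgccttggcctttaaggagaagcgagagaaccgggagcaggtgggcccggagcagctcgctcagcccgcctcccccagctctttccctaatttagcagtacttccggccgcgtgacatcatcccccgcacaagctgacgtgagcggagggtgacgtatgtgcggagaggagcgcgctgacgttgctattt
The Shank3 window was 82.4% GC with 31 CpG dinucleotides and 4 GC boxes, against a median of 52.4% GC and 6 CpG over 32851 windows of the same length. A GC box was present in 32.7% of those windows. The Dlgap3 window was 46.8% GC with 2 CpG and no GC box, and the Homer1 window was 62.4% GC with 21 CpG and no GC box. The 2 lower genes thus lay on opposite sides of the median GC, and a second Homer1 start, not shown, was 46.8% GC with 7 CpG. TAATTA, a core bound by many homeodomain factors, was in 4.84% of all windows and in none of these 3, searched on both strands.

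In CPM, scaled by TMM within each table, Shank1 was at 115.5, 179.7 and 197.4 CPM in AMPK+/+ and at 44.8, 74.4 and 39.3 CPM in AMPK-/-. Shank3 was at 35.1, 33.3 and 50.4 CPM in AMPK+/+ and at 9.78, 19.2 and 3.02 CPM in AMPK-/-, the last value resting on 1 count. Shank2 was at 24.4, 33.3 and 43.9 CPM in AMPK+/+ and at 14.3, 18.1 and 15.1 CPM in AMPK-/-. All 3 SHANK genes were lower in each AMPK-/- library than in any AMPK+/+ library. Dlgap3 was at 57.7, 89.8 and 65.9 CPM in AMPK+/+ and at 28.1, 31.0 and 21.2 CPM in AMPK-/-. Dlg4 was at 181.0, 206.3 and 195.7 CPM in AMPK+/+ and at 142.6, 144.4 and 139.0 CPM in AMPK-/-. These 2 genes also did not overlap between the groups. Dlgap1 overlapped, with 101.0, 99.8 and 96.6 CPM in AMPK+/+ and 71.0, 100.3 and 96.7 CPM in AMPK-/-. Homer1 overlapped as well, with 19.6, 26.6 and 27.8 CPM in AMPK+/+ and 15.8, 21.8 and 18.1 CPM in AMPK-/-. In the shallow libraries these values rested on 8 to 62 counts in AMPK+/+ 2 and on 1 to 46 counts in AMPK-/- 3.

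In the LMX1B table the heterozygotes were the lowest group for most of the genes. Shank1 was at 435.4, 314.1 and 375.0 CPM in LMX1B+/+, at 170.6, 192.4 and 137.4 CPM in LMX1B+/- and at 310.1, 266.1 and 356.9 CPM in LMX1B-/-. Shank2 was at 95.4, 68.9 and 91.1 CPM in LMX1B+/+, at 50.9, 56.7 and 40.2 CPM in LMX1B+/- and at 69.7, 62.7 and 77.6 CPM in LMX1B-/-. Shank3 was at 113.3, 80.9 and 84.6 CPM in LMX1B+/+, at 39.8, 49.7 and 37.6 CPM in LMX1B+/- and at 76.4, 65.5 and 85.4 CPM in LMX1B-/-. For each SHANK gene the LMX1B+/- libraries lay below all 6 others, and LMX1B-/- overlapped LMX1B+/+. Dlgap3 was at 150.4, 90.6 and 117.7 CPM in LMX1B+/+, at 73.7, 73.5 and 64.8 CPM in LMX1B+/- and at 90.4, 83.6 and 109.0 CPM in LMX1B-/-. Dlg4 was at 296.0, 225.2 and 265.5 CPM in LMX1B+/+, at 189.3, 180.6 and 156.8 CPM in LMX1B+/- and at 216.6, 205.1 and 268.6 CPM in LMX1B-/-. Dlgap3 and Dlg4 shared the order of the SHANK genes, with the heterozygotes apart. Dlgap1 was at 86.6, 89.5 and 73.4 CPM in LMX1B+/+, at 78.1, 56.7 and 52.8 CPM in LMX1B+/- and at 76.4, 74.6 and 86.8 CPM in LMX1B-/-. Homer1 was at 44.3, 50.3 and 41.4 CPM in LMX1B+/+, at 57.9, 45.1 and 50.6 CPM in LMX1B+/- and at 47.0, 46.8 and 50.4 CPM in LMX1B-/-. Both of these overlapped between all 3 genotypes.

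**Figure D1:**
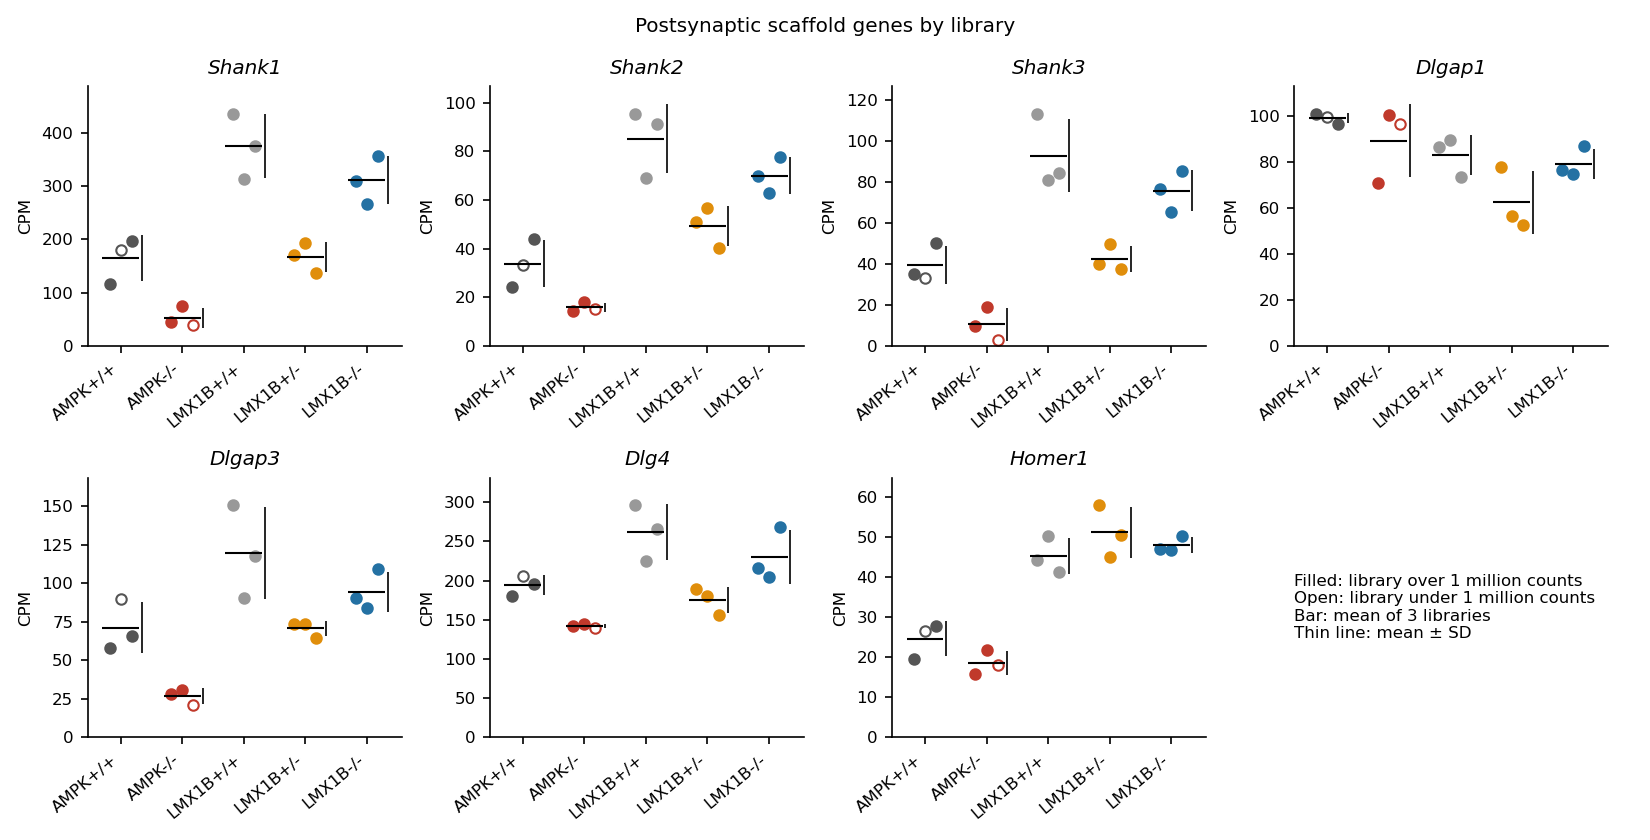
TMM-scaled CPM (vertical axes, linear from 0) of the 7 scaffold genes in all 15 libraries, by genotype (horizontal axes), with the mean and SD of 3 libraries per group and open points for the 2 shallow libraries. Shank1, Shank2, Shank3, Dlgap3 and Dlg4 are lower in all AMPK-/- than in all AMPK+/+ libraries, and LMX1B+/- lies below both other LMX1B groups, while Homer1 and Dlgap1 overlap.

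Levels of different genes were compared per length, in the deposited RPKM, which divides reads by gene length and by library size. In LMX1B+/+ the order was Shank1 (38.0 ± 7.34, SD, n = 3), Dlgap3 (28.1 ± 6.99), Dlg4 (21.1 ± 3.93), Shank3 (10.7 ± 1.65), Shank2 (8.20 ± 1.97), Dlgap1 (4.92 ± 0.220) and Homer1 (4.02 ± 0.390) RPKM. Shank1 and Dlgap3 overlapped, as did Dlgap3 and Dlg4, and Shank3 and Shank2. LMX1B-/- had the same order, from 30.8 ± 4.46 RPKM for Shank1 to 4.17 ± 0.156 RPKM for Homer1. In LMX1B+/- the top 3 genes overlapped at 14.4 ± 3.31 (Shank1), 14.1 ± 1.72 (Dlgap3) and 12.0 ± 1.47 (Dlg4) RPKM, and Dlgap1 was last at 3.13 ± 0.509 RPKM. AMPK+/+ had Dlgap3 (16.5 ± 3.8), Shank1 (16.5 ± 4.91) and Dlg4 (15.4 ± 1.36) RPKM at the top, overlapping, and Homer1 last at 2.17 ± 0.463 RPKM. AMPK-/- had Dlg4 alone at the top at 10.2 ± 0.423 RPKM, with Shank1 at 4.70 ± 1.39 RPKM, after Dlgap3 and within the range of Dlgap1 (4.72 ± 0.765 RPKM). The 2 tables differ in stage and were normalized separately, so levels were not tested between them.

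Of the summed RPKM of the 3 SHANK genes, Shank1 made up most in all groups, with means from 63.7% in LMX1B+/- to 67.9% in AMPK+/+. Its share of 63.0% to 64.6% in LMX1B+/- lay below the 66.5% to 67.3% of LMX1B+/+ and the 66.6% to 67.7% of LMX1B-/-. The Shank2 share was 14.3% ± 0.924 (SD, n = 3) in LMX1B+/+, 17.8% ± 0.404 in LMX1B+/- and 14.3% ± 0.458 in LMX1B-/-, and its heterozygote range of 17.4% to 18.2% lay above the 13.8% to 15.4% of LMX1B+/+. The Shank3 share was 18.8% ± 1.33, 18.5% ± 1.21 and 18.6% ± 0.2 in the same groups. In the AMPK table the Shank2 share was 13.2% ± 0.737 in AMPK+/+ and 19.8% ± 4.96 in AMPK-/-, where the library with 19 SHANK counts gave 25%. Shares were not tested.

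**Figure D2:**
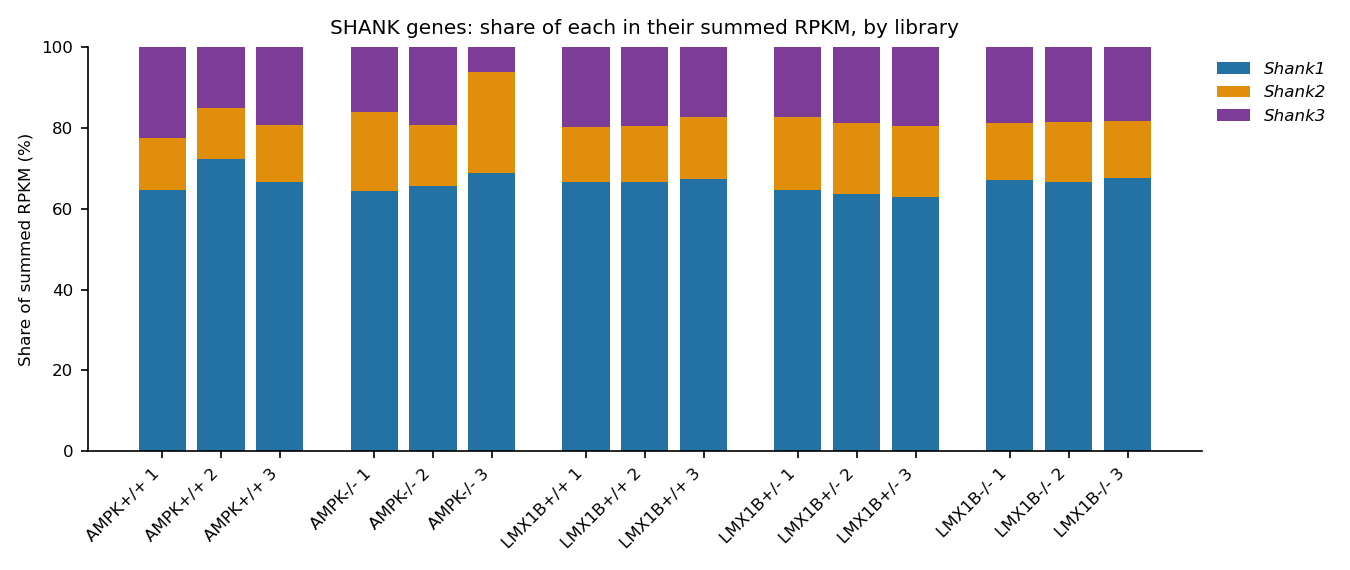
Share of Shank1, Shank2 and Shank3 in their summed RPKM (vertical axis, %, from 0 to 100) in each of the 15 libraries. Shank1 makes up 63.0% to 72.2% in every library, and the Shank2 band is 17.4% to 18.2% in the LMX1B+/- libraries against 13.8% to 15.4% in LMX1B+/+.

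The libraries labelled AMPK-/- were compared with AMPK+/+ over all 17397 tested genes. All 3 SHANK genes and Dlgap3 fell, by 2.85-fold for Shank1, 3.03-fold for Shank3, 2.12-fold for Shank2 and 2.31-fold for Dlgap3. Thus 4 of 7 scaffold genes were called lower and none higher, where 5.17% of all tested genes were called lower. Earlier results on Shank1, Shank3 and Dlgap3 in these AMPK libraries were known beforehand, so this count is description only. The log2 fold change was -1.51 (SE 0.226, adjusted p = 0.000512) for Shank1 and -1.60 (SE 0.282, adjusted p = 0.00167) for Shank3. It was -1.08 (SE 0.250, adjusted p = 0.00961) for Shank2 and -1.21 (SE 0.204, adjusted p = 0.00115) for Dlgap3. Dlg4, encoding the PSD-95 layer above, read -0.43 (SE 0.159, adjusted p = 0.0891) although its groups did not overlap. Homer1 at -0.36 (95% interval -0.86 to 0.14) and Dlgap1 at -0.18 (-0.54 to 0.19) did not pass the test. In all, 5 of 7 genes had AMPK-/- libraries below every AMPK+/+ library, against 12.7% of all tested genes. The median log2 fold change was -1.08 over the 7 genes and -0.0056 over all genes tested. In tissue RNA, fewer cells of a type and less RNA per cell cannot be told apart.

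Several measures differed between the AMPK groups while others overlapped, and their part in these results was not tested. Of all 17397 tested genes, 900 were called lower and 655 higher in AMPK-/-. Mitochondrial genes took 13.5%, 13.9% and 10.4% of counts in AMPK+/+ and 20.1%, 21.6% and 21.7% in AMPK-/-. The 8 neuronal markers summed to 3773 to 4207 CPM in AMPK+/+ and 4416 to 4584 CPM in AMPK-/-, and 1 was called lower and 3 higher. The 5 choroid plexus markers summed to 9.98 to 17.5 CPM in AMPK+/+ and 35.3 to 126.9 CPM in AMPK-/-, and the 8 skeletal muscle markers reached 830.2 CPM in AMPK+/+ 3 against at most 10.5 CPM in the other 5 libraries, with 5 of 5 tested called lower in AMPK-/-. Erythroid markers summed to 245.6 to 321.4 CPM in AMPK+/+ and 299.2 to 484.7 CPM in AMPK-/- with 2 of 5 called higher, and cerebellum markers to 93.2 to 137.4 CPM and 52.1 to 102.6 CPM with 1 of 6 tested called lower. Oligodendrocyte lineage markers, which include the myelin gene Mbp, summed to 10850 to 18870 CPM across the AMPK libraries and to 235.0 to 427.5 CPM across the prenatal LMX1B libraries. The labels give no exact age. The study's methods give postnatal days 1 to 5 for its mice, without naming the RNA-seq libraries. The neonatal stage of the AMPK libraries was not tested against these markers of myelination. Without AMPK+/+ 3, Shank1, Shank3 and Dlgap3 stayed called, and Shank2 read -0.66 (adjusted p = 0.188). Without AMPK-/- 1, Shank2 read -0.93 (adjusted p = 0.0559) and the other 3 calls stayed. With the 4 deeper libraries alone, none of the 7 passed (4 had an unadjusted p under 0.05, edgeR), although Shank1 read -1.39, Shank3 -1.56, Shank2 -1.07 and Dlgap3 -1.06.

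The libraries labelled LMX1B+/-, in which Lmx1b itself was not lower, were compared with LMX1B+/+ over 21729 tested genes. The SHANK genes fell, 2.25-fold for Shank1, 2.19-fold for Shank3 and 1.73-fold for Shank2, as did Dlgap3 (1.69-fold), Dlg4 (1.49-fold) and Dlgap1 (1.33-fold). Homer1 did not pass, and differences between the genes in the size of the fall were not tested. Thus 6 of 7 were called lower, in a comparison that called 17.3% of all tested genes lower. The log2 fold change was -1.17 (SE 0.158, adjusted p = 0.000113) for Shank1 and -1.13 (SE 0.149, adjusted p = 9.32e-05) for Shank3. It was -0.79 (adjusted p = 0.00106) for Shank2, -0.76 (adjusted p = 0.00235) for Dlgap3, -0.58 (adjusted p = 0.00445) for Dlg4 and -0.41 (adjusted p = 0.0329) for Dlgap1. The Dlgap1 call was lost on leaving out LMX1B+/- 2 (adjusted p = 0.119), LMX1B+/- 3 (0.138), LMX1B+/+ 1 (0.0912) or LMX1B+/+ 2 (0.101), and with only the 6 libraries compared (0.0598). Homer1 read 0.18 (95% interval -0.06 to 0.41, adjusted p = 0.228), and its sign turned when libraries were scaled by total counts alone (-0.066). Groups did not overlap for 5 of 7 genes, against 21.9% of all tested genes. The median was -0.76 over the 7 genes and -0.03 over all genes tested.

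The null libraries stood closer to LMX1B+/+ than the heterozygotes did. In LMX1B-/- against LMX1B+/+, none of the 7 passed the edgeR test, 1 had an unadjusted p under 0.05 (Dlgap3), and DESeq2 also called none. That comparison called 0.0184% of all tested genes, and 6.09% had LMX1B-/- below LMX1B+/+ without overlap, none of them among the 7. Fold changes on the log2 scale ran from -0.34 (Dlgap3, 95% interval -0.68 to -0.0021) to 0.09 (Homer1, -0.15 to 0.32), and Shank1 read -0.27 (-0.61 to 0.07). The intervals thus still allow a Shank1 level 0.61 lower on the log2 scale. Against LMX1B+/-, LMX1B-/- was higher for Shank1 (log2 fold change 0.90, adjusted p = 0.00119), Shank3 (0.84, adjusted p = 0.00131), Shank2 (0.51, adjusted p = 0.0218) and Dlg4 (0.39, adjusted p = 0.0474). These 4 calls of 7 stand beside 11.5% of all tested genes called higher, and 5 of 7 were higher without overlap, against 21.0% of all tested genes. Dlgap3 at 0.42 (adjusted p = 0.0702), Dlgap1 at 0.34 (adjusted p = 0.0871) and Homer1 at -0.09 (adjusted p = 0.587) did not pass. The 3 LMX1B comparisons share libraries, so the comparisons with LMX1B+/- restate in part the level of the same 3 heterozygote libraries. Leaving out LMX1B+/- 3, LMX1B-/- 1 or LMX1B-/- 3 left 2 calls, Shank1 and Shank3. Of the 9 fits that left out 1 library, Shank2 was called in 6 and Dlg4 in 3 (largest edgeR adjusted p for Dlg4 0.23).

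**Figure D3:**
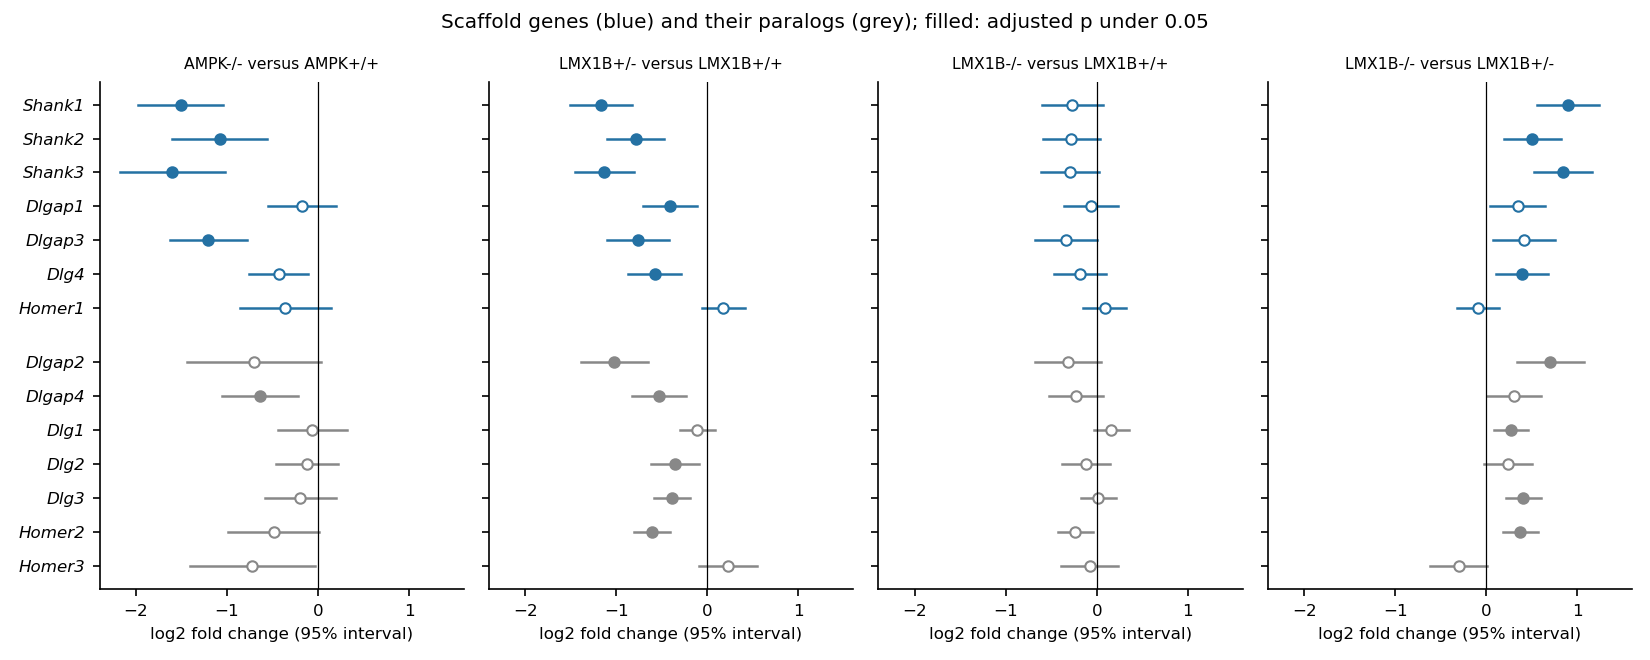
Log2 fold change with its 95% interval (horizontal axes) of the 7 scaffold genes (blue) and 7 paralogs (grey) in the 4 comparisons, with filled points at an adjusted p under 0.05. Filled blue points number 4, 6, 0 and 4 from left to right, and Shank1 and Shank3 lie farthest from 0 among the blue points in every panel except LMX1B-/- versus LMX1B+/+.

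Several other measures also differed between LMX1B+/- and LMX1B+/+ while some overlapped, and their part in these results was not tested. Of all 21729 tested genes, 3752 were called lower and 4225 higher in that comparison. The cerebellum markers summed to 317.6 to 420.8 CPM in LMX1B+/- and 408.8 to 535.0 CPM in LMX1B+/+ with 3 of 8 called lower, and 3 of 6 astrocyte markers were called lower (median log2 fold change -0.48). Skeletal muscle markers summed to 17.6 to 20.4 CPM against 11.9 to 16.0 CPM with 3 of 7 tested called higher, and forebrain markers to 37.4 to 48.9 CPM against 29.0 to 30.2 CPM with 1 of 7 tested called higher. Erythroid markers, globin genes and Alas2, summed to 3546 to 7508 CPM in LMX1B+/-, 508.3 to 1248 CPM in LMX1B+/+ and 1060 to 2379 CPM in LMX1B-/-, and 5 of 5 were called higher in LMX1B+/- than in LMX1B+/+. Mitochondrial genes took 9.58% to 14.7% of counts in LMX1B+/-, 5.57% to 6.74% in LMX1B+/+ and 7.23% to 7.98% in LMX1B-/-. Oligodendrocyte lineage markers summed to 235.0 to 301.4 CPM in LMX1B+/- and 345.2 to 400.6 CPM in LMX1B+/+, with 5 of 6 called lower. Neuronal markers summed to 4690 to 5715 CPM in LMX1B+/- and 4692 to 5130 CPM in LMX1B+/+, with 3 of 8 called lower and 1 higher. Hindbrain Hox genes summed to 216.5 to 610.5 CPM against 126.8 to 266.8 CPM, with 5 of 8 called higher. Several of these sums overlapped between LMX1B+/- and LMX1B-/-. In LMX1B-/- cerebellum markers summed to 351.8 to 408.3 CPM and forebrain markers to 35.2 to 79.98 CPM. Skeletal muscle markers there summed to 12.9 to 18.8 CPM, Hox genes to 188.5 to 257.8 CPM and neuronal markers to 4911 to 5300 CPM. Astrocyte (1174 to 1519 CPM) and oligodendrocyte lineage markers (411.9 to 427.5 CPM) in LMX1B-/- lay above LMX1B+/-.

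The closest relatives of these scaffolds were examined next, and the 2 lists were not tested against each other. Of all tested genes, 5.17% were called lower in AMPK-/-, 17.3% lower in LMX1B+/- against LMX1B+/+ and 11.5% higher in LMX1B-/- against LMX1B+/-. Of 7 paralogs, 1 was called lower and none higher in AMPK-/-, the SAPAP gene Dlgap4 (log2 fold change -0.64, adjusted p = 0.0474), with a list median of -0.49. DESeq2 and limma did not call it, nor did the fits with a replicate block or with the deeper libraries alone. It was also not called with the length trend, the GC trend or both (described below) removed. Leaving out 1 library, no paralog was called except without AMPK+/+ 1, where 1 was. Dlgap2 at -0.71 (adjusted p = 0.228), Homer3 at -0.72 (0.184) and Homer2 at -0.48 (0.219) did not pass, and the AMPK+/+ means of Dlgap2 and Homer3 in CPM lay below the 3-count floor of both shallow libraries. The membrane-associated guanylate kinase genes read -0.19 (Dlg3), -0.12 (Dlg2) and -0.06 (Dlg1), none called. In LMX1B+/- against LMX1B+/+, 5 of 7 were called lower, namely Dlgap2 (-1.02, adjusted p = 0.000514), Homer2 (-0.61, adjusted p = 0.000230), Dlgap4 (-0.53, adjusted p = 0.00846), Dlg3 (-0.39, adjusted p = 0.00479) and Dlg2 (-0.35, adjusted p = 0.0352). Dlg1 at -0.11 and Homer3 at 0.23 were not called. With the length and GC trends described below removed, 2 stayed called lower (Dlgap2 and Homer2) and Homer3 was called higher. No paralog was called in LMX1B-/- against LMX1B+/+, where 1 (Homer2) had an unadjusted p under 0.05 and DESeq2 called none. Against LMX1B+/-, LMX1B-/- was higher for Dlgap2 (0.70), Dlg3 (0.41), Homer2 (0.37) and Dlg1 (0.27), and with both trends removed 1 was called higher (Dlg3) and 1 lower (Homer3).

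Partners at excitatory synapses were a list of 29 receptors, adhesion molecules, kinases and actin or GTPase regulators. Of these, 10 were called lower and none higher in AMPK-/- (all tested genes: 5.17% lower), with a median log2 fold change of -0.53. The count was 6 by DESeq2 and 0 by limma at either pseudocount. Leaving out 1 library gave 1 (without AMPK-/- 3) to 16 (without AMPK-/- 2), with 4 without AMPK+/+ 3. In the deeper libraries alone it was 0 (13 at an unadjusted p under 0.05). With the trends described below removed, it was 2 (length), 6 (GC) and 0 (both, 7 at an unadjusted p under 0.05). Among the 10 called were Ppp1r9b, the actin-binding spinophilin (-0.74, adjusted p = 0.00783), and Grin1, the obligatory NMDA receptor subunit (-0.79, adjusted p = 0.00830). Sipa1l1, a Rap GTPase-activating protein, was another (-0.82, adjusted p = 0.0126). In LMX1B+/- against LMX1B+/+, 20 were called lower (all tested genes: 17.3%) and 1 higher, with a median of -0.51, and 11 and 0 with both trends removed. Among them were Iqsec1, an Arf exchange factor (-0.98, adjusted p = 4.86e-05), Grin1 (-0.99, adjusted p = 7.22e-05) and Grin2b (-0.90, adjusted p = 0.000136). Lrrtm2, a synaptic adhesion molecule, was the 1 called higher (0.28, adjusted p = 0.0430), named after its value was seen. LMX1B-/- against LMX1B+/+ had none of the 29 called by edgeR or DESeq2 (1 at an unadjusted p under 0.05). Against LMX1B+/-, LMX1B-/- had 20 called higher (all tested genes: 11.5%) and 1 lower. The 20 were led by Nlgn3 (0.70), Grin1 (0.87), Iqsec1 (0.75) and Grin2a (0.82). With both trends removed, 10 were called higher and 1 lower.

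Lower values were not limited to the excitatory side. Of 6 inhibitory scaffold genes, 2 were called lower in AMPK-/-, the adhesion molecule Nlgn2 (-0.65, adjusted p = 0.0223) and Insyn1 (-0.62, adjusted p = 0.0465), while Gphn, which encodes gephyrin, the main inhibitory scaffold, read 0.17 (adjusted p = 0.640). Neither was called without AMPK+/+ 3, AMPK-/- 1 or AMPK-/- 3, in the deeper libraries alone or by limma. The same held with the GC trend or both trends removed. In LMX1B+/- against LMX1B+/+, 4 were called lower, Nlgn2 (-0.86, adjusted p = 0.000491), Insyn2a (-0.64, adjusted p = 0.00244), Lhfpl4 (-0.43, adjusted p = 0.0163) and Insyn1 (-0.48, adjusted p = 0.0231). Gphn was called higher (0.30, adjusted p = 0.0259). With both trends removed, 2 stayed called lower (Nlgn2 and Insyn2a) and Gphn higher. None of the 6 was called in LMX1B-/- against LMX1B+/+ by edgeR or DESeq2, or had an unadjusted p under 0.05, and 3 (Nlgn2, Insyn2a and Lhfpl4) were higher in LMX1B-/- than in LMX1B+/-, of which Nlgn2 stayed called with both trends removed. The list medians were -0.44, -0.46, -0.05 and 0.38 in the 4 comparisons. Of all tested genes, 5.17% were called lower in AMPK-/-, 17.3% lower in LMX1B+/- against LMX1B+/+ and 11.5% higher in LMX1B-/- against LMX1B+/-.

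Most scaffold genes are long and GC-rich, and fold changes were therefore set beside both properties. Gene length, as implied by the deposited RPKM, was 10514 bases for Shank1, 11137 for Shank2, 9236 for Shank3, 17890 for Dlgap1, 13251 for Dlg4 and 11976 for Homer1, and 4521 bases for Dlgap3. All but Dlgap3 were longer than at least 89.3% of the genes tested in the AMPK table. GC content of the annotated transcripts was 64.5% for Dlgap3, 62.5% for Shank1 and 62.1% for Shank3, each above that of at least 98.8% of tested genes, 56.0% for Shank2, 54.7% for Dlg4, 51.7% for Dlgap1 and 42.0% for Homer1. The 4 genes called lower in AMPK-/- were thus the 4 richest in GC, and the other 3 the poorest.

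Fold changes of all genes followed both properties. In AMPK-/- against AMPK+/+ the median log2 fold change went from 0.17 in the decile of genes lowest in GC to -0.43 in the highest, where 19.9% were called lower against 0.35% in the lowest. By length it went from 0.55 in the shortest decile to -0.26 in the longest. In LMX1B+/- against LMX1B+/+ it went from 0.72 in the shortest decile to -0.33 in the longest, and from 0.23 to -0.29 by GC. Shank1, Shank3 and Dlgap3 lay below the lower quartile of their own GC decile in both comparisons (-0.80 for AMPK and -0.59 for LMX1B+/-). At 62.1% to 64.5% GC they stood at the rich end of that decile, whose median was 59.3% (AMPK) and 59.2% (LMX1B). Their place within it therefore cannot be told apart from the GC trend. Homer1 lay below the lower quartile of its GC decile in the AMPK table (-0.10) and near the median of its GC decile in the heterozygotes (0.15).

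**Figure D4:**
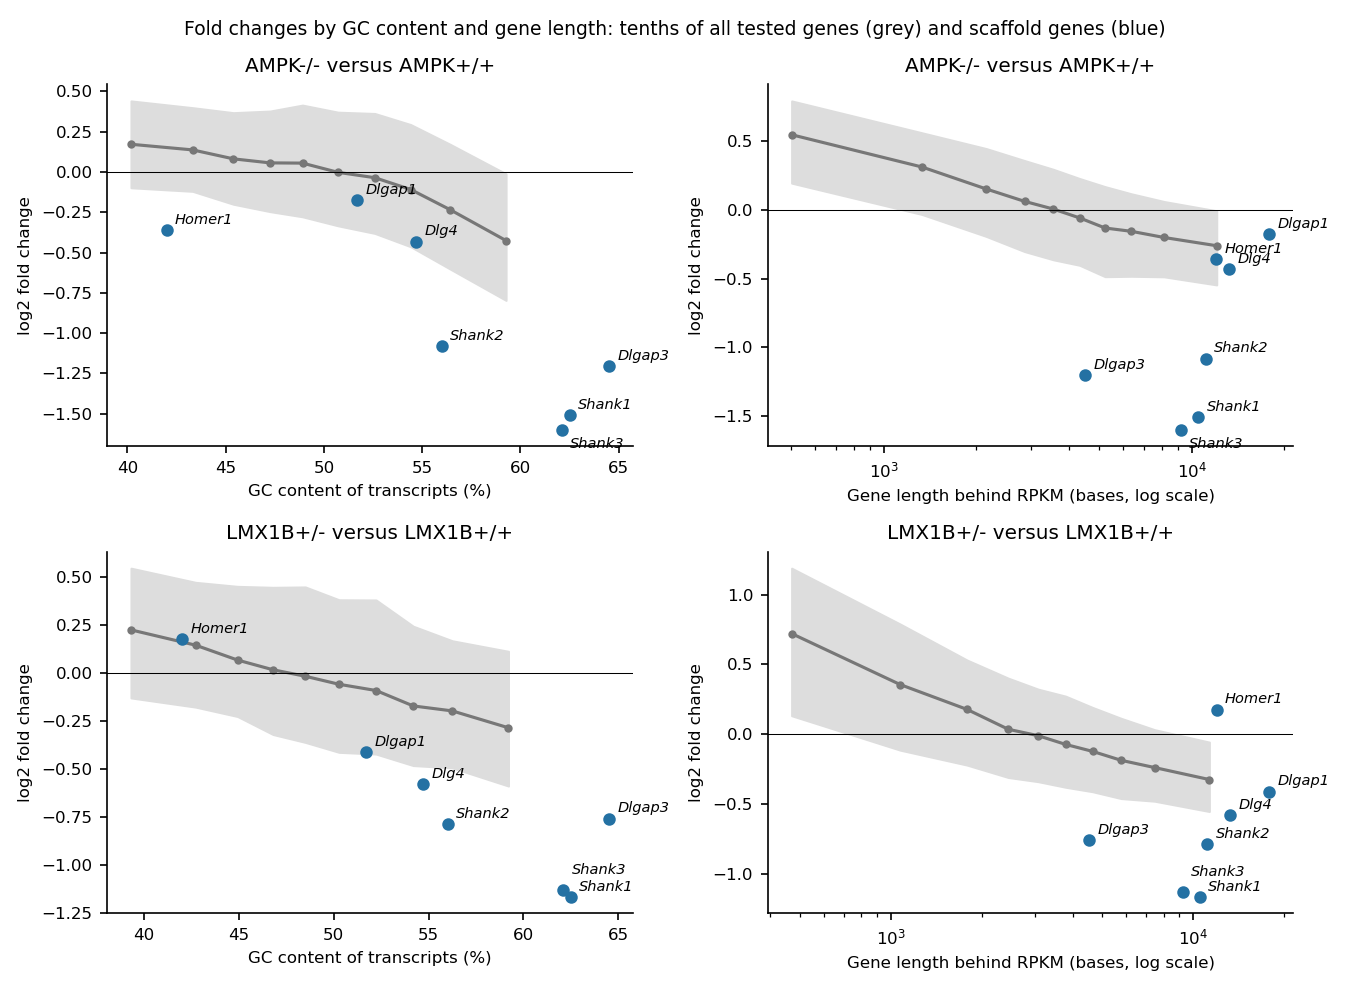
Log2 fold change (vertical axes) against GC content of transcripts (%, left) and gene length (bases, log axis, right), for AMPK-/- versus AMPK+/+ (top) and LMX1B+/- versus LMX1B+/+ (bottom). The grey line is the median and the band runs between the quartiles of all tested genes in deciles, falling from 0.17 to -0.43 with GC at the top left, and blue points are the 7 scaffold genes, with the SHANK genes and Dlgap3 below the lower quartile of their decile in all 4 panels.

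The fits were repeated with the smooth trends of each library on length and on GC removed. With the length trend removed, 4, 5, 0 and 3 of the 7 genes were called in AMPK-/- against AMPK+/+, LMX1B+/- against LMX1B+/+, LMX1B-/- against LMX1B+/+ and LMX1B-/- against LMX1B+/-. The 5 were 4 lower and Homer1 higher, with Dlg4 (adjusted p = 0.194) and Dlgap1 (adjusted p = 0.870) lost, and the 3 were Shank1 and Shank3 higher and Homer1 lower (-0.37, adjusted p = 0.0333). Over all tested genes that fit called 901, 6269, 4 and 3663 in the same order. With the GC trend removed, 3, 6, 0 and 4 of the 7 genes were called, beside 926, 8183, 4 and 6077 of all tested genes. Dlgap3 was the gene lost in AMPK-/- (-0.59, adjusted p = 0.107). With both trends removed, 0, 3, 0 and 2 of the 7 genes were called. Beside them stood 322 of 17397 genes called in AMPK-/- and 6004, 4 and 3842 of 21729 genes in the LMX1B comparisons. In AMPK-/- the SHANK genes then read -0.61 (Shank1, adjusted p = 0.115), -0.58 (Shank2, adjusted p = 0.186) and -0.77 (Shank3, adjusted p = 0.121), with 3 of the 7 genes at an unadjusted p under 0.05, and Dlg4 read 0.0033. In LMX1B+/- against LMX1B+/+ the 3 remaining calls were the SHANK genes, at -0.51 (Shank1, adjusted p = 0.00221), -0.33 (Shank2, adjusted p = 0.0463) and -0.51 (Shank3, adjusted p = 0.000438), while Dlgap3 read -0.20 (adjusted p = 0.117) and Dlg4 -0.12 (adjusted p = 0.497). Shank1 (0.41, adjusted p = 0.0116) and Shank3 (0.38, adjusted p = 0.00431) remained called in LMX1B-/- against LMX1B+/-. Homer1 passed in LMX1B+/- against LMX1B+/+ only with the length trend alone removed (0.49, adjusted p = 0.00482), among the alternatives run. Removing a trend also removes any true change that follows length or GC, and the 2 cannot be told apart here.

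**Figure D5:**
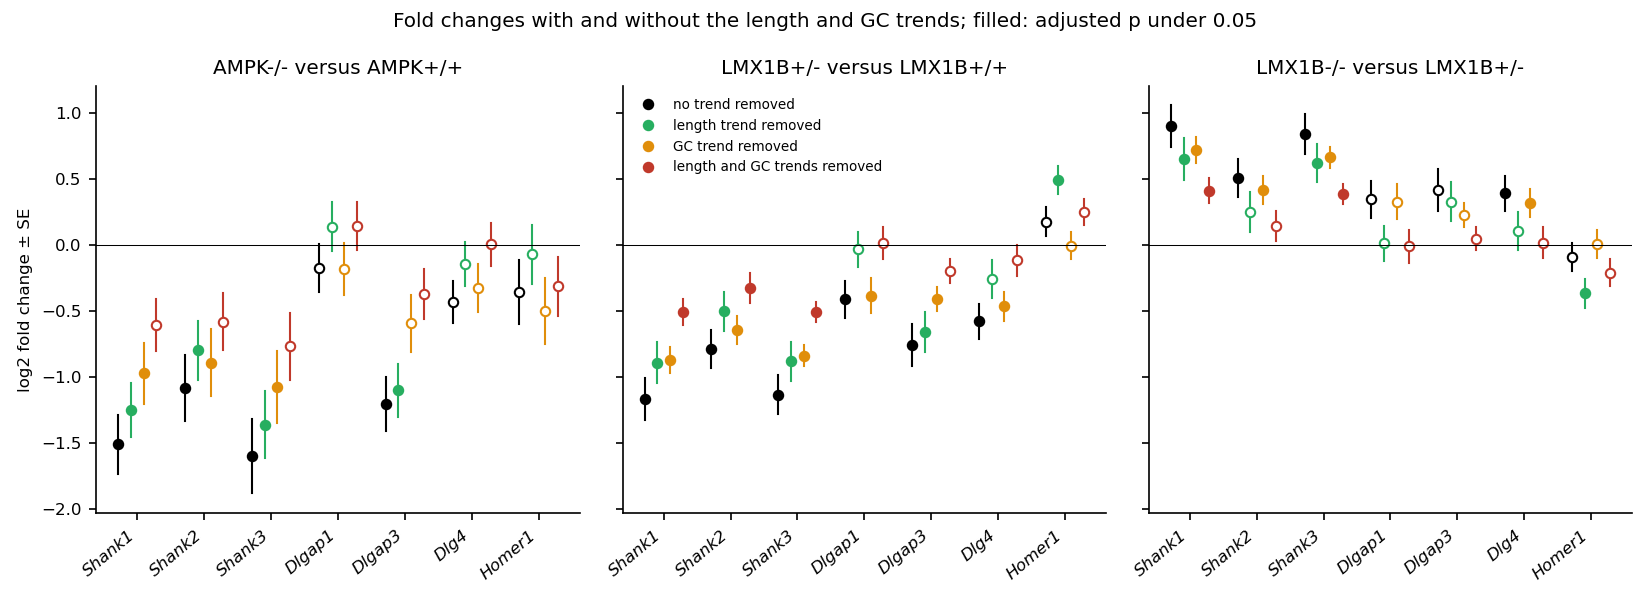
Log2 fold change with its SE (vertical axis) of the 7 scaffold genes in 3 comparisons, with no trend removed (black), the length trend removed (green), the GC trend removed (orange) or both removed (red), with filled points at an adjusted p under 0.05. With both removed, no red point is filled for AMPK-/-, 3 are filled for LMX1B+/- and 2 for LMX1B-/- against LMX1B+/-.

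The genes whose levels followed each scaffold gene most closely were found over 13 libraries, the 9 LMX1B libraries and the 4 deeper AMPK libraries, among 17140 genes. The measure was the root-mean-square difference of log2 CPM centred within each table, which shares depth and scaling among all genes and carries no test. Shank1 lay nearest Ajm1 (0.102), Shank3 (0.113) and Pitpnm3 (0.116), against a median of 0.658 over all genes, and Shank3 lay nearest Shank1 (0.113), Ajm1 (0.138) and Prr12 (0.142). Shank2 had other nearest genes, Srrm4 (0.0742), a neuronal splicing factor, Wnk2 (0.0840) and Plekha6 (0.0845). It still stood 55th in nearness to Shank1 among all these genes, at 0.202 against the median of 0.658 for Shank1. Dlgap3 lay nearest Arhgap33 (0.0680), Zmiz2 (0.0738) and Adgrb1 (0.0786), and Dlg4 nearest Vac14 (0.0503), Phactr1 (0.0641) and Wasf1 (0.0654). Dlgap1 lay nearest Kcnk10 (0.0992), Camk2d (0.1) and Myt1l (0.104), and Homer1 nearest Brwd1 (0.0943), Zfp329 (0.0993) and Ano4 (0.105). Homer1 stood far from Shank1 and Shank3, at 0.596 and 0.618, beyond the median over all genes for Homer1 (0.333). This was not particular to Homer1. Dlgap1 (0.482 and 0.513, median 0.352) and Dlg4 (0.406 and 0.451, median 0.358) also lay beyond their own medians.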

How the data were processed

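The authors deposited, for each of 2 tables, raw counts per gene and RPKM per gene of polyA RNA-seq libraries. Per the labels' processing notes, reads were aligned with HISAT2 to GRCm39; the counting tool, its annotation and any use of molecular indexes are not given in the sources used here. Column names were matched to sample titles (those of AMPK+/+ 3 and LMX1B+/+ 3 carry a suffix or number that the labels do not explain), and symbols were matched for 51884 of 57180 Ensembl IDs (90.7%). Groups were compared on the deposited counts with edgeR 4.0.16 (R 4.3.3): filterByExpr, TMM, quasi-likelihood F-test, Benjamini-Hochberg over all genes tested, adjusted p under 0.05, in one fit of the 6 AMPK and one of the 9 LMX1B libraries. The main fit was also run on simulated counts with known changes and the same spread for every gene. Those counts lacked the length and GC trends of these data. The alternatives were other scalings, filters and tests, DESeq2 1.42.0, limma 3.58.1 on log2(RPKM + 1) and log2(RPKM + 0.1), fits with length and GC trends removed (lowess, span 0.3), a replicate block, fewer libraries and leaving out each library. Log2 CPM used a prior count of 2. The scaffold genes and gene lists were chosen with earlier results of these data known. All 7 scaffold genes and all 7 paralogs were named, and of the other lists the 4 called genes with the smallest adjusted p per comparison, less a few that are not reported here. Length came from the ratio of counts to RPKM. GC content came from a GRCm38 annotation, over all transcripts of a gene, for 98.7% (AMPK) and 97.8% (LMX1B) of genes tested. No gene coordinates are given because the build of that annotation differs from that of the files. Promoters came from RefSeq (GRCm38.p6). Counting-error floors are 3 counts per library.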

Additional observations from a re-analysis of the deposited data

How the results depend on the processing

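Of 619 fold changes of the 7 genes under alternatives, 541 kept direction and side of the threshold, 43 lost the call, 19 gained one and 16 changed sign. In AMPK-/- against AMPK+/+, 4 genes were called. The count was 2 with at least 10 counts in every library (3 genes left to test), and 0 with both trends removed, with limma on RPKM at either pseudocount (5 with an unadjusted p under 0.05) and in the 4 deeper libraries. Leaving out 1 library gave 3 to 5. In LMX1B+/- against LMX1B+/+ the count was 6, 3 with both trends removed and 5 to 6 leaving out 1 library. In LMX1B-/- against LMX1B+/- it was 4, 2 with both trends removed and 2 to 5 leaving out 1 library. In LMX1B-/- against LMX1B+/+ it was 0 throughout.

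Sign changes were all of uncalled values or of calls lost. With both trends removed Dlgap1 read 0.14, 0.013, 0.0016 and -0.011 in the order AMPK-/- against AMPK+/+, LMX1B+/- against LMX1B+/+, LMX1B-/- against LMX1B+/+ and LMX1B-/- against LMX1B+/-, and Dlg4 read 0.0033 in AMPK-/-. Dlgap1 in AMPK-/- read 0.14 with the length trend removed and -0.32 to 0.017 leaving out 1 library (positive without AMPK-/- 1). Homer1 in LMX1B+/- against LMX1B+/+ read -0.0048 with the GC trend removed, -0.066 by library size alone, and -0.060 and -0.050 by limma. Homer1 in LMX1B-/- against LMX1B+/- read 0.0080, 0.12, 0.12 and 0.10 under the same settings, and in LMX1B-/- against LMX1B+/+ read -0.0048 to 0.17 leaving out 1 library (negative without LMX1B+/+ 3). The causes were not tested.

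Over all genes, 1555 were called in AMPK-/-, and 825 with 10 counts in every library, 678 by DESeq2, 926, 901 and 322 with the GC, length and both trends removed, 0 by limma (2543 and 2840 at an unadjusted p under 0.05), 6 in the deeper libraries and 548 to 2958 leaving out 1 library (548 without AMPK+/+ 3, 605 without AMPK-/- 3, 921 without AMPK-/- 1 and 2958 without AMPK+/+ 1). The count in LMX1B-/- against LMX1B+/+ was 4, 36 by DESeq2 or the likelihood-ratio test, 329 with no filter, 19 by library size alone and 13 in the 6 libraries compared. In LMX1B-/- against LMX1B+/- it was 5544, 3663 with the length trend removed, and 3500 to 6054 leaving out 1 library. Scaling by library size alone moved the median log2 fold change of all genes to -0.18 (AMPK-/-), -0.27 (LMX1B+/-) and 0.22 (LMX1B-/- against LMX1B+/-), with 273 higher and 1655 lower calls against 655 and 900, 2054 and 5816 against 4225 and 3752, and 3737 and 1296 against 2500 and 3044.

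Same-numbered libraries did not deviate together (correlations -0.177 to 0.148), so the labels' replicate numbers were not taken as pairs. A replicate block gave 4, 6, 0 and 3 called scaffold genes and 1350, 7243, 5 and 4720 called genes in the order above. In AMPK+/+ 2 and AMPK-/- 3 the median tested gene had 3 and 4 counts, so differences in genes below 9.98 and 9.07 CPM were not detectable there.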
